A study of Mus musculus with 2 samples.

Results

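Keratins are the intermediate filament proteins of epithelial cells. The genes described here were 7 of the 37018 genes on the array: the simple-epithelial keratins *Krt7*, *Krt8*, *Krt18* and *Krt19* and the stratified-epithelial keratins *Krt10*, *Krt14* and *Krt17*. They were found through the accessions of the array's probes, which gave 1 probe for each gene and a pair of probes for *Krt10*, and all 7 were among the 24052 genes whose signal could be tested. The genes were selected on the ratio between AIMP3-depleted and control cells that is shown here, so their own values are a description and carry no test.

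The study asked how loss of AIMP3, a scaffold protein of the multi-aminoacyl-tRNA synthetase complex encoded by *Eef1e1*, alters gene expression in mouse embryonic stem cells (mESCs). The cells carry loxP-flanked *AIMP3* alleles and cre-ERT2, a Cre recombinase that tamoxifen (4-OHT) switches on, in the AIMP3-depleted and in the control cultures alike. AIMP3-depleted mESCs received 2 μM tamoxifen for 4 days, control mESCs received the solvent ethanol for as long, and both were kept in medium with leukemia inhibitory factor. Each of 2 AIMP3-depleted RNA samples was labelled with Cy5 and hybridized with Cy3-labelled RNA pooled from the control cultures to 1 Agilent mouse array. The control is thus 1 pooled sample on both arrays. No culture without loxP-flanked alleles was treated with tamoxifen on these arrays, so that an effect of tamoxifen or of Cre itself cannot be told apart from that of AIMP3 loss, and the dyes were not swapped. The submitters describe general growth on mouse embryonic fibroblast feeder layers, whereas the study's methods place drug treatments in medium conditioned by such fibroblasts, so that feeder cells may not have been present in these cultures.

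Keratins form filaments only as pairs of an acidic type I chain (*Krt10*, *Krt14*, *Krt17*, *Krt18* and *Krt19* among those described here) with a basic type II chain (*Krt7* and *Krt8*). Single-layered epithelia use *Krt8* with *Krt18*, joined by *Krt7* and *Krt19*, whereas layered epithelia such as the epidermis use *Krt14* in their basal cells, *Krt10* in the layers above and *Krt17* in hair follicles and wounded skin. *Krt8* and *Krt18* are also the first keratins of the mouse embryo, where they mark the trophectoderm and the extraembryonic endoderm.

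The values below are log2 ratios of AIMP3-depleted over control signal, so 1 is a doubling and a negative value is a lower signal after depletion. A gene was called changed when the ratio was over 1.5-fold (0.58 on the log2 scale) and limma's unadjusted p was under 0.05. By this rule 5.52% of all genes tested were raised and 0.790% were lowered, and the median log2 ratio over all genes was 0.02. The transcript that Cre targets, *Eef1e1*, had log2 ratios of -0.90 and -0.90 on the 2 arrays, 1.87-fold lower on average (limma, Benjamini-Hochberg adjusted p = 4.92e-05). The median signal was between 2.68 and 3.31 times the local background, 0 spots were saturated, and the 2 arrays had a correlation of 0.92 across genes, which are not independent replicates.

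*Krt8* and *Krt18*, the pair that makes the simple-epithelial filament, lie next to each other on chromosome 15 and are read away from each other. The 250 bases before the annotated start of *Krt7*, *Krt8* and *Krt18* are shown because no other gene described here had a promoter sequence that ends at the gene's own start. They come from RefSeq on GRCm38.p6 and are written 5′ to 3′ on the strand of the gene. Capitals mark matches, on either strand, to the TATA box TATAAA and the GC box GGGCGG. *Krt7* is on the plus strand (chr15:101412153-101412402), *Krt8* on the minus strand (chr15:102004343-102004592) and *Krt18* on the plus strand (chr15:102027966-102028215).
Krt7: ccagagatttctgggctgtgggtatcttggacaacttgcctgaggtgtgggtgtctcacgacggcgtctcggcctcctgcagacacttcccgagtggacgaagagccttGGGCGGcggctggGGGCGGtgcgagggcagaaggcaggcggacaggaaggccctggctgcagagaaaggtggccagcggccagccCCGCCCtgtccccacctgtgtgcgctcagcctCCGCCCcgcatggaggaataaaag
Krt8: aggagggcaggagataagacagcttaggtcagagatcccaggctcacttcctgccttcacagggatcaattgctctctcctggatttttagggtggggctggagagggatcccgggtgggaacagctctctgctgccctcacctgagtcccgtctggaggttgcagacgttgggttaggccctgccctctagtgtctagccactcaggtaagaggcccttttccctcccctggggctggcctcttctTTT
Krt18: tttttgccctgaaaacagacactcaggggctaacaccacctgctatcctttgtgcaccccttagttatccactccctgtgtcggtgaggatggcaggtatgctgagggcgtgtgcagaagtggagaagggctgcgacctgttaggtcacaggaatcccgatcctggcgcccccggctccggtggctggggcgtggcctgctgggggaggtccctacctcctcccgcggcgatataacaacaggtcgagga

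The window searched reached from 250 bases before to 50 bases after the start. *Krt7* held 4 GC boxes, which begin 141 and 128 bases before the start on its own strand and 56 and 24 bases before it on the other. In *Krt8* the TATA box lay on the annotated start itself: TATAAA runs from the last base before the start to base 5 after it, and overlaps a match on the other strand that begins 3 bases before the start. Whether these cells start *Krt8* transcripts at this annotated base was not tested, so the bases printed are those before the annotated start only. *Krt18* held neither. The AP-1 site TGANTCA and the decamer bound by p53 were searched for as well and matched in none of the 3 windows. Of all 32851 mouse promoters of the same length, 35.7% held a GC box, 13.6% a TATA box, 7.81% the AP-1 site and 8.36% the p53 decamer. These 3 genes shared no match, and a match is a run of letters, not a shown binding site. *Krt19* and *Krt17* had no promoter sequence, and those of *Krt10* and *Krt14* belonged to another start and are not printed.

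All 4 simple-epithelial keratins were at least 2-fold higher in the AIMP3-depleted samples on both arrays, and none of the 3 stratified-epithelial keratins reached 1.5-fold on either array. *Krt18*, the type I chain of the pair, had log2 ratios of 1.76 and 1.80, a mean of 1.78 ± 0.025 (SD, n = 2) or 3.43-fold. It ranked 3 from the top of all 24052 genes tested. Its log2 signal was 15.47 and 15.54 in the control channel and 17.24 and 17.34 in the AIMP3-depleted channel. *Krt18* was thus far above background before depletion, and the rise was measured between bright signals that did not overlap.

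*Krt8*, the type II partner of *Krt18*, had log2 ratios of 1.35 and 1.38, a mean of 1.36 ± 0.016 (SD, n = 2) or 2.57-fold, and ranked 60 from the top. Its log2 signal was 12.85 and 12.81 in the control channel against 14.20 and 14.19 after depletion. The ratio of *Krt18* exceeded that of its partner by 0.41 on the first array and 0.42 on the second. Both members of the pair therefore rose in the same samples, and the type I chain had the higher ratio each time.

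*Krt19*, a type I keratin that lacks most of the usual tail domain and is a common marker of ductal epithelium, had log2 ratios of 1.15 and 1.24, a mean of 1.20 ± 0.059 (SD, n = 2) or 2.29-fold. Its log2 signal moved from 11.57 and 11.53 in the control channel to 12.73 and 12.77 after depletion. *Krt7*, a type II keratin of glandular epithelia and trophoblast, had log2 ratios of 1.02 and 1.01, a mean of 1.01 ± 0.0074 (SD, n = 2) or 2.02-fold. Its log2 signal moved from 10.26 and 10.28 to 11.28 and 11.29. These genes ranked 140 and 269 from the top. Among the 4 simple-epithelial genes the 2 arrays were closest for *Krt7* and furthest apart for *Krt19*.

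Among the stratified-epithelial keratins, *Krt14*, the type I chain of basal keratinocytes, had log2 ratios of 0.17 and 0.37, a mean of 0.27 ± 0.15 (SD, n = 2) or 1.21-fold. Its 2 values differ by more than those of any other gene described here, and its log2 signal was 8.17 and 8.05 in the control channel against 8.34 and 8.43 after depletion. *Krt17*, induced in injured and in regenerating skin, had log2 ratios of 0.16 and 0.25, a mean of 0.20 ± 0.065 (SD, n = 2) or 1.15-fold. Its log2 signal was 9.24 and 9.25 in the control channel and 9.40 and 9.50 after depletion. Both were positive on each array, and their means stood at percentiles 81.8 and 76.4 of all genes.

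*Krt10*, the type I chain of differentiating epidermal layers, had a pair of probes that did not point the same way. The brighter probe, which stands for the gene here, had log2 ratios of -0.06 and -0.14, a mean of -0.10 ± 0.053 (SD, n = 2) at percentile 29.6 of all genes. The dimmer probe had log2 ratios of 0.35 and 0.47, a mean of 0.41 ± 0.085 (SD, n = 2), and its control signal was well above background on 1 of the 2 arrays. In the authors' deposited values this dimmer probe was at 0.86 and 1.15, past 1.5-fold on both arrays. No direction is given for *Krt10*, whose sign also turned positive with the mean of its probes (0.16) and with median centring (0.071).

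**Figure D1:**
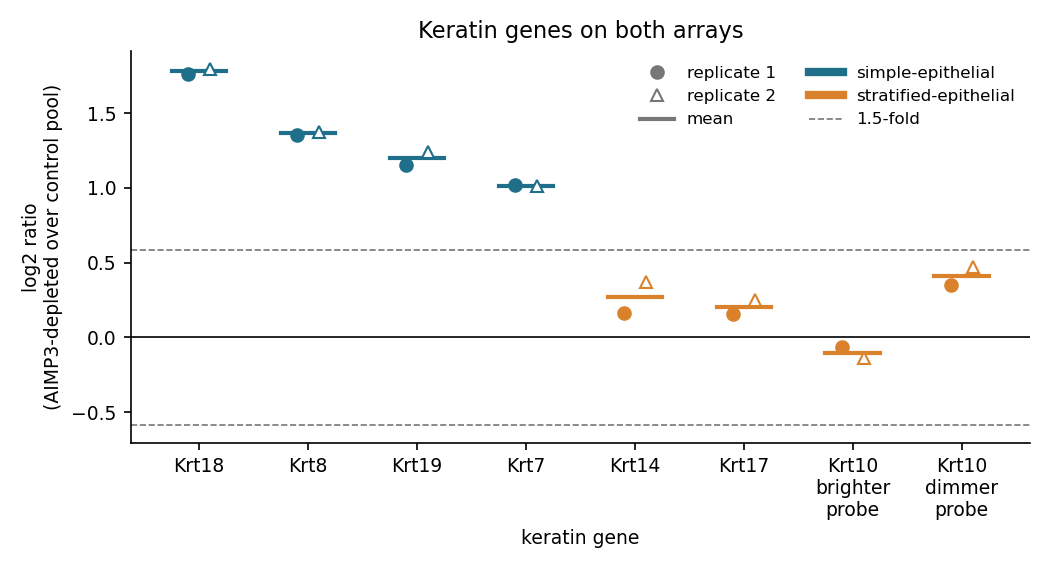
The log2 ratio (vertical axis) is plotted for each keratin probe, with a circle for replicate 1, an open triangle for replicate 2, a bar for their mean and dashed lines at 1.5-fold. The simple-epithelial genes lie between 1.01 and 1.80 on both arrays and the stratified-epithelial genes between -0.14 and 0.47, counting both *Krt10* probes.

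All 4 simple-epithelial and 0 of the 3 stratified-epithelial genes were past the threshold of the call, against the 5.52% raised among all genes, which cannot be read as a result for genes chosen on this ratio. The gene just inside it was *Krt7* at 1.01 and the gene just outside was *Krt14* at 0.27. The median of the 4 simple-epithelial genes was 1.25 on the first array and 1.31 on the second, and that of the 3 stratified-epithelial genes was 0.16 and 0.25. The difference of the medians was 1.098 and 1.06, with a mean of 1.08. In the order of means, *Krt18*, *Krt8*, *Krt19* and *Krt7* were each separated from the next gene by more than the gap between arrays, whereas the values of *Krt14* and *Krt17* overlapped. This order and this gap follow in part from how the genes were chosen.

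**Figure D2:**
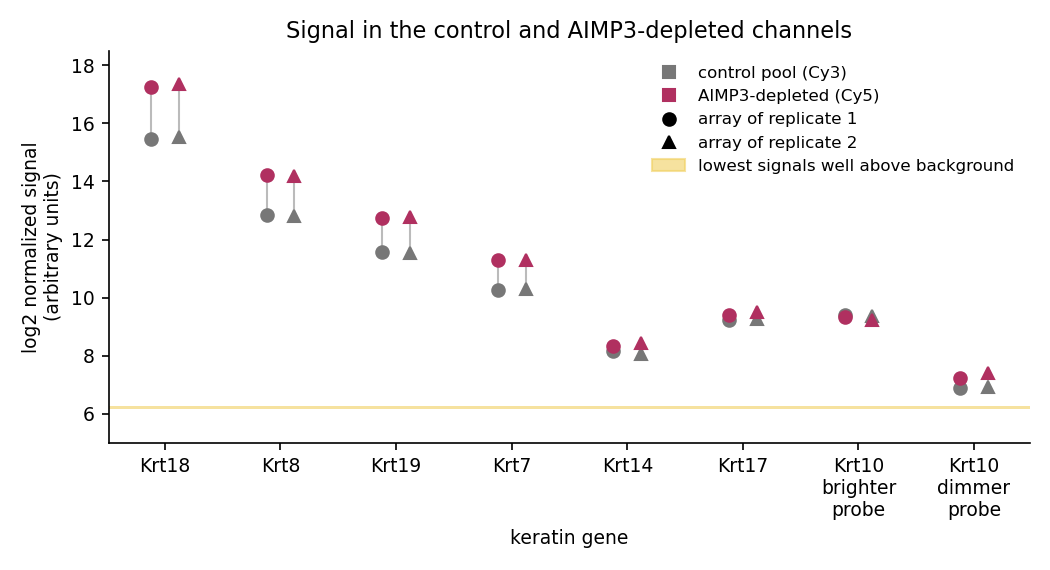
The log2 normalized signal (vertical axis, arbitrary units) of each keratin probe is drawn for the control pool in grey and the AIMP3-depleted sample in red, with circles for the array of replicate 1 and triangles for that of replicate 2; the yellow band marks the lowest signals called well above background. Signals can be compared within a probe but not between probes, and the red points of *Krt18*, *Krt8*, *Krt19* and *Krt7* lie above the grey ones by 1.01 to 1.80.

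In RNA from whole cultures, a higher keratin signal from more cells that express the gene and one from more RNA per cell cannot be told apart. The probes were designed on mm9, and whether a probe also binds related transcripts, such as the *Krt8* pseudogene or the similar genes *Krt14*, *Krt16*, *Krt17* and *Krt42*, was not tested.

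The described genes were placed among the other keratins of the array. The RefSeq table holds 47 further keratin genes, of which 46 had a probe and 19 gave a signal well above background on each array, in the control or in the depleted channel. Of these 19, 5 rose, 0 fell and 14 were not past the threshold, with a median log2 ratio of 0.10 against 0.02 for all genes tested. With limma, 9 positive and 3 negative ratios had an unadjusted p under 0.05, which is 63.2% of the 19 beside 60.5% of all genes tested, and the methods' t-test called 4 raised and 0 lowered.

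*Krt42*, a type I gene that follows *Krt17* on chromosome 11, rose most, with log2 ratios of 0.97 and 1.01 (mean 0.99 ± 0.030 SD, limma adjusted p = 4.35e-05). Its neighbours *Krt17*, *Krt16* and *Krt14* were at 0.20, 0.17 and 0.27. *Krt13*, a type I keratin of the mouth and esophagus, rose by 0.81 and 0.91 on the log2 scale (adjusted p = 6.66e-05 by limma). It lies a gene beyond *Krt15* on the same chromosome as *Krt19*.

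*Krt20*, the type I keratin of intestinal and urothelial surface cells, rose by 0.88 and 0.72 (limma adjusted p = 0.000113). *Krt81*, a type II keratin of the hair shaft, rose by 0.72 and 0.83 (limma adjusted p = 9.17e-05). *Krt23*, a type I keratin of simple epithelia, was at 0.66 and 0.62 (limma adjusted p = 0.000129), but its control signal was not well above background on either array. With this background correction and normalization its rise is therefore given as at least 1.55-fold, its AIMP3-depleted signal over its own control signal, which was higher than the lowest control signal called well above background. Median centring gave a lower value, so this is no limit across settings. Without background subtraction or with median centring (0.50) *Krt23* no longer passed the threshold, and with the scanner's processed signals its log2 ratio was 2.11.

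*Krt15*, a basal keratinocyte keratin whose control signal was likewise not well above background on either array, was at least 1.23-fold higher by the same reckoning and was not called. With processed signals its log2 ratio was 0.94 and it passed the threshold. *Krt12*, the keratin of the corneal epithelium, was the lowest of all, with -0.42 and -0.37 (mean -0.39, limma adjusted p = 0.000727). It did not reach 1.5-fold, and passed the threshold at -0.64 with processed signals and at -0.61 in the authors' deposited values.

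By class, 2 of the 3 other simple-epithelial keratins measured rose (*Krt20* and *Krt23*), and the remaining gene, *Krt80*, had a log2 ratio of -0.18 (limma adjusted p = 0.0176). The methods' t-test did not call *Krt20* and left 1 of these 3. Of the 9 other stratified-epithelial keratins measured, 1 rose (*Krt13*), and the median of the 9 was 0.0024. *Krt5*, the type II partner of *Krt14* in basal keratinocytes, was at 0.02 and -0.04, and *Krt16*, a type I keratin of activated epidermis, was at 0.12 and 0.22. Neither of the 2 hair root sheath keratins measured was called by limma, 1 of them with an unadjusted p under 0.05, and the methods' t-test called 0. Of the 3 hair shaft keratins measured, 1 rose (*Krt81*). *Krt42*, which rose most of the other keratins at 0.99, and *Krt222* at 0.29 were in none of these classes. Thus simple-epithelial keratins were not the only ones to rise, and not all of them did.

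**Figure D3:**
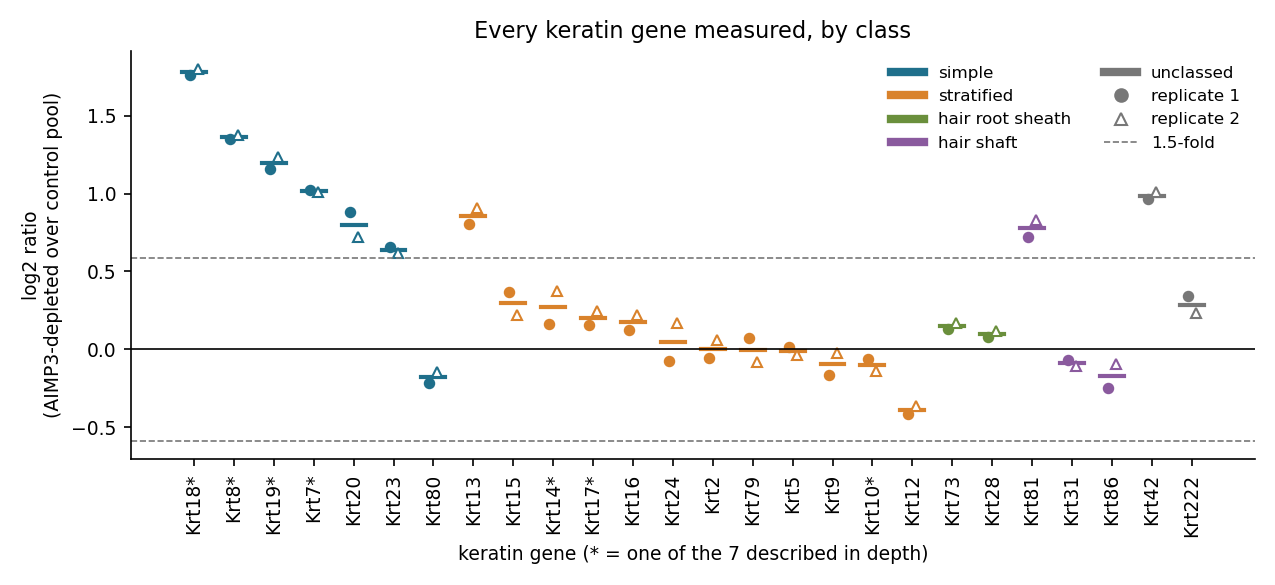
The log2 ratio (vertical axis) of the 26 keratin genes measured is ordered by class and mean, with circles for replicate 1, open triangles for replicate 2, bars for means, asterisks on the 7 genes described in depth and dashed lines at 1.5-fold. Outside those 7, *Krt42*, *Krt13*, *Krt20*, *Krt81* and *Krt23* pass the upper line, and no keratin passes the lower one.

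Raised keratins had neighbours that were raised and others that were not. On chromosome 15 the genes following *Krt18* are *Eif4b*, a translation initiation factor gene, and *Tns2*, which had log2 ratios of -0.12 and -0.07. On the other side of *Krt8*, *Krt78* and *Krt4* could not be measured and *Krt79* was at -0.0049. *Krt7* lies beside *Krt80* at -0.18, and *Krt81*, raised by 0.78, is the third gene on its other side. *Krt19* lies between *Krt15* at 0.30 and *Krt9* at -0.09, and *Krt13*, raised by 0.86, follows *Krt15*. *Krt10* is followed by *Krt12*, *Krt20* and *Krt23*, of which *Krt12* was at -0.39 and the others were raised.

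Keratin filaments end at desmosomes between cells and at hemidesmosomes toward the matrix, and are tied to these sites by plakin cytolinkers. Of 23 anchor and linker genes measured (29 listed), 6 rose, 0 fell and 17 were not past the threshold, with a median log2 ratio of 0.26 against 0.02 for all genes. *Dsp*, the desmosomal plakin that binds keratin directly, rose by 1.20 and 1.16 (limma adjusted p = 3.41e-05), and a dimmer second probe of it gave 0.33 and 0.68. *Perp*, a desmosomal membrane protein and a known target of p53, rose by 0.97 and 1.07 (limma adjusted p = 4.76e-05). *Dsc2*, the desmosomal cadherin of simple epithelia, rose by 0.83 and 0.96 (limma adjusted p = 6.82e-05).

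*Eppk1*, a plakin that binds *Krt8* and *Krt18* filaments, rose by a mean of 0.74, and so did *Itgb4*, the integrin chain of hemidesmosomes. *Plec*, the linker between keratin filaments and *Itgb4*, rose by 0.67. The lowest gene of the list was *Pkp4* at -0.13. Desmosomal partners of *Dsp* that were not past the threshold include *Jup*, with 0.25 and -0.03, and *Pkp2*, with 0.48 and 0.45. *Pkp1* had a log2 ratio of 0.58 with a control signal not well above background on either array, which makes it at least 1.498-fold higher by the reckoning used for *Krt23*.

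Among the intermediate filament genes that are not keratins, 15 of 16 were measured: 2 rose, 0 fell and 13 were not past the threshold, with a median of 0.12. *Vim*, the filament of mesenchymal cells, had log2 ratios of 1.39 and 1.44 (limma adjusted p = 3.41e-05), and *Lmna*, the A-type nuclear lamin, had 0.96 and 1.04 (limma adjusted p = 4.71e-05). The B-type lamin genes *Lmnb2* and *Lmnb1* were the lowest at -0.33 and -0.31. The ratio of *Vim* lay between those of *Krt18* and *Krt8*, so a filament gene of mesenchymal cells was raised along with those of simple epithelium.

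Of 20 transcription factor genes of epithelial and extraembryonic cells measured (25 listed), 6 rose, 0 fell and 14 were not past the threshold, with a median of 0.31. The methods' t-test called 3 of the 20. *Foxa2*, a factor of endoderm and of glandular epithelia, had the highest ratio with 1.26 and 1.502, and a dimmer probe gave 1.096 and 0.997. *Fosl1* and *Jun*, which form AP-1, rose by 0.91 and 0.81. *Gata3*, *Cdx2* and *Tead4*, factors of the trophectoderm, rose by 0.85, 0.66 and 0.64, and *Cdx2* was at 0.54 on the first array and 0.78 on the second. Their limma adjusted p-values were between 4.76e-05 and 0.000427. *Grhl1* was the lowest at -0.35, and *Trp63*, the master factor of stratified epithelium, was at 0.36.

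A separate list held epithelial surface and tight-junction genes and their regulators, without desmosomal or hemidesmosomal genes. Of its 20 genes measured, limma called 0 raised and 0 lowered, with 8 positive and 7 negative ratios at an unadjusted p under 0.05, and the methods' t-test called 0. Among all genes, 33.5% had a positive and 27.0% a negative ratio at that p. By limma's call 5.52% of all genes were raised and 0.790% lowered, so 0 of 20 is near the share of all genes. The median was 0.07. *Rab25*, an epithelial trafficking GTPase, was the lowest with -0.55 and -0.38. *Epcam* and *Cdh1*, surface proteins that mESCs share with epithelia, were at -0.28 and -0.10.

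**Figure D4:**
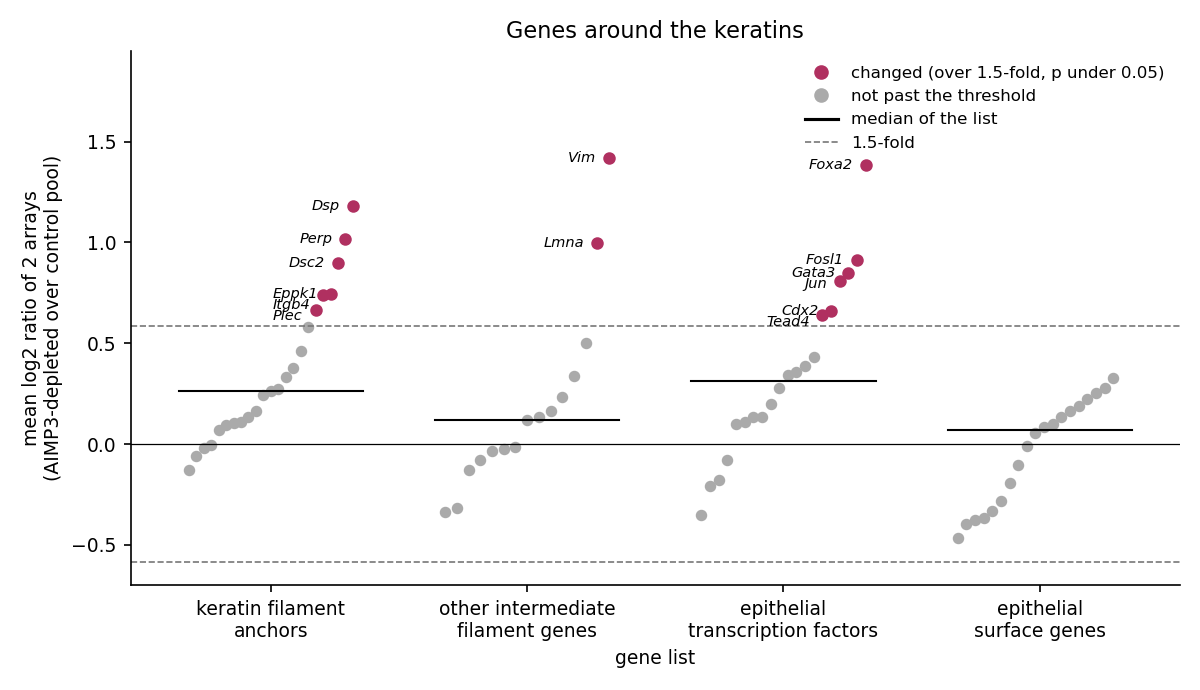
Each point is the mean log2 ratio of the 2 arrays (vertical axis) for a gene of the lists named along the horizontal axis (1 surface gene is not drawn), red where it was called changed, with black bars at the list medians and dashed lines at 1.5-fold. The anchors, other filament genes and transcription factors hold 6, 2 and 6 red points, all of them above the upper line, and the epithelial surface genes hold 0. Of all genes tested, 5.52% were raised and 0.790% lowered by the same rule.

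Markers of other cells were read beside the keratins, because several of these cell types express *Krt8* and *Krt18*. All 12 mESC markers were above background in both channels. Of them 0 were raised and 2 were lowered, *Fgf4* and *Tdgf1*, with a median of -0.22. The sum over the 12 genes was 337311 and 333698 in the control channel and 346247 and 334440 after depletion, and the bright probe of *Dppa5a* carried much of it. Without *Dppa5a* the sum of the other 11 was 201381 and 198670 in the control channel and 151815 and 146306 after depletion. Such sums, here and below, add signals of probes that cannot be compared with each other. Bright probes weigh most, so a sum is no measure of how much RNA a cell type gave.

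Of the primitive and parietal endoderm markers, 14 of 17 measured were raised, and the median was 1.02. *Sox17* was at 1.44, and a dimmer probe of it gave 0.71 and 1.18. Their summed signal was between 226538 and 232000 in the control channel and between 447224 and 453911 in the AIMP3-depleted channel, and without *Sparc*, the brightest, that of the other 16 went from between 139050 and 140505 to between 235107 and 243084. Of the trophectoderm markers, 5 of 10 were raised with a median of 0.58, and *Eomes* and *Tfap2c* were at -0.16 and -0.21. Their summed signal was between 18606 and 18854 in the control channel and between 20825 and 21349 after depletion, and without *Tfap2c*, the brightest, that of the other 9 went from between 8888 and 8896 to between 12098 and 13006. The trophoblast markers *Elf5* and *Tpbpa* and the endoderm marker *Ttr* did not pass the background filter. *Cdx2*, *Gata3* and *Tead4* are in this list and among the factors above, as *Foxa2* is in the endoderm list and among the factors.

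Of the embryonic fibroblast markers, 9 of 13 were raised with a median of 0.75, led by *S100a4* at 1.40. Their summed signal rose from between 99303 and 99908 to between 147500 and 151051, and without *Fn1*, the brightest, that of the other 12 went from between 26203 and 26741 to between 50372 and 51483. The fibroblast markers *Lum* and *Fap* did not pass the background filter. *Prrx1* was called raised at 0.75, and a dimmer probe of it gave 0.40 and 0.55. Of the keratinocyte markers, 4 of 8 were raised with a median of 0.49, and 2 of these 4, *Perp* and *Itgb4*, are counted among the filament anchors above as well. Their summed signal was between 25033 and 25600 in the control channel and between 45788 and 46538 after depletion. *Perp* alone made up 17919 and 17234 of the control sum and 35059 and 36147 of the depleted sum, and the other 7 genes went from between 7681 and 7799 to between 10391 and 10729. *Lor* and *Sfn* were raised as well, at 0.74 and 0.62. *Krt5* and *Col17a1* were at -0.01 and -0.0030, and *Krt1*, *Ivl*, *Dsg3* and *Dsc3* did not pass the background filter. Of the mesothelium markers, 1 of 5 was raised (*Msln*, 1.26), and their summed signal went from between 6505 and 6633 to between 9243 and 9583. Without *Msln* the sum of the other 4 was between 4380 and 4507 in the control channel and between 4272 and 4359 after depletion. By the methods' t-test, 1 mESC marker was lowered, and 11 endoderm, 4 trophectoderm, 7 fibroblast, 2 keratinocyte and 1 mesothelium markers were raised. Signals of markers of several cell types thus moved in the same samples as the simple-epithelial keratins, and their part in the keratin ratios was not tested.

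The genes whose ratios came closest to those of *Krt18* on the 2 arrays, by Euclidean distance over 22584 genes well above background in every channel, were *Anxa1*, *Lgals3*, *Cavin2*, *AK166854* and *Serpinb9g*, with means between 1.59 and 1.76. *Krt8* was closest to *Anxa3*, *Tm4sf1*, *Cryab*, *Zfp703* and *Pde10a*, with means between 1.35 and 1.37. With 2 arrays such a distance compares the size of a ratio only, and nearness to a value follows from how many genes share it.

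The simple-epithelial keratins kept positive ratios under each way of processing the signals, but the size of the ratio moved. Over 9 other settings the mean log2 ratio of *Krt18* was between 1.66 and 2.24, that of *Krt8* between 1.35 and 1.63, that of *Krt19* between 1.15 and 1.42 and that of *Krt7* between 0.99 and 1.22. The highest value of each came from median centring, which leaves the median of all genes at 0.18 in place of 0.02. *Krt14* was between 0.17 and 0.39 and *Krt17* between 0.16 and 0.38, below 1.5-fold in each setting.

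**Figure D5:**
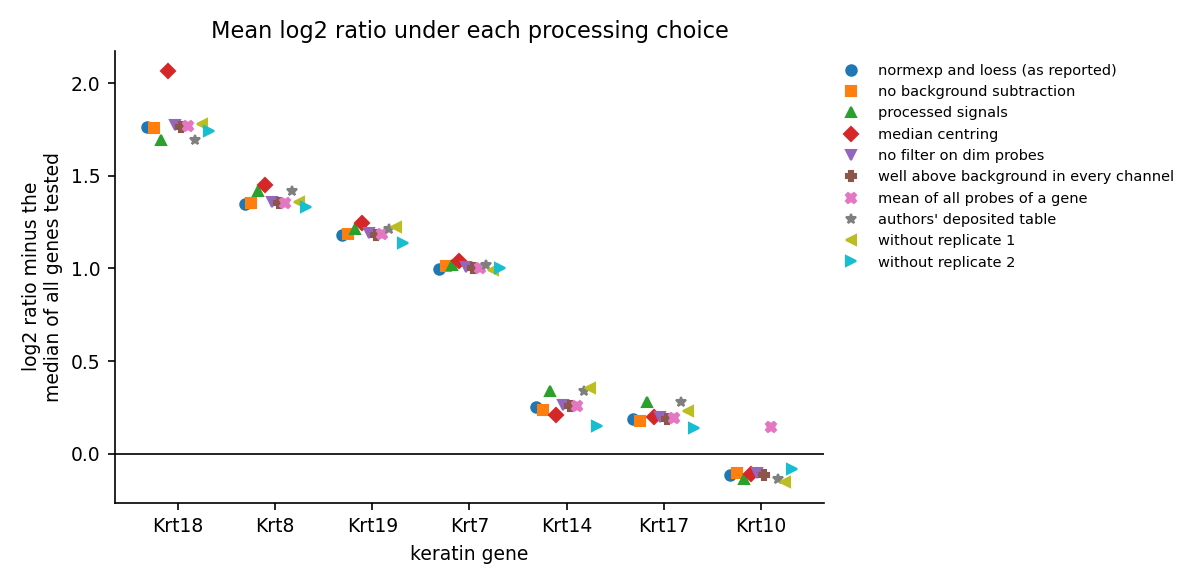
The mean log2 ratio of each keratin gene minus the median of all genes tested (vertical axis) is shown under each processing choice, including the arrays of single replicates. The 4 simple-epithelial genes stay at or above 0.99 and the 3 stratified-epithelial genes at or below 0.36 in each setting, and median centring gives the separate high point of *Krt18*. *Krt10* is drawn by its brighter probe or by the mean of its probes. Its dimmer probe, which was higher, is not drawn alone.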

How the data were processed

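The authors deposited, for each array, spot and local background intensities from Agilent Feature Extraction (version 11.5.1.1 per the file headers; the methods name another) and the scanner's processed intensity with background subtracted and dyes normalized. A log10 ratio for each spot, as deposited by the authors, is the scanner software's own and gave no value here. The authors deposited log2 ratios from GeneSpring as well. In 99.8% of the 55680 probes of the first array these equal the log2 ratio of the processed signals plus 0.040 within 0.01, and their column medians are 0.09 and 0.11. Of their sample columns 0 were left out.

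Median signals were corrected with normexp (offset 50) and normalized by loess within each array, with control spots at weight 0. Spots with an outlier flag (215 and 227) were dropped, and repeated spots of a probe were averaged. A probe was tested if each array had it well above background in 1 channel or more (33043 of 55681), and the brightest tested probe stood for a gene. Probe accessions were named through RefSeq (31014 spots matched; other features keep the file's name), with the RefSeq order used for neighbours. Mean log2 ratios were set against 0 in limma (lmFit, then eBayes), with 1 residual and 5.27 prior degrees of freedom, and Benjamini-Hochberg adjusted over all 24052 genes. Both arrays lay on 1 slide. The p-values cover the spread between arrays that share a control pool, which may be technical. A bound used the lowest normalized signal called well above background, or the probe's own where higher.

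The genes and lists were chosen with earlier results of these data known. The rule for naming took the 7 genes with every probe, each further keratin past the threshold, up to 6 genes past the threshold and the lowest and highest of the anchor, other filament, transcription factor and surface lists, *Eef1e1* and the nearest genes to *Krt18* and *Krt8*; other list members and the cell type markers named were picked after their values were seen. For 1 surface gene no value is reported or plotted here. The test was checked on simulated data with independent errors on each array. That check does not cover the shared control pool or the unswapped dyes. The settings tried were no background subtraction, processed signals, median centring, no filter, a stricter filter, the mean of probes, the authors' deposited values, the methods' t-test, other thresholds and each replicate left out. R 4.3.3 and limma 3.58.1 were used. Having 2 arrays limits the precision.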

Additional observations from a re-analysis of the deposited data

How the results depend on the processing

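The 5 further keratins and the anchors, other filament genes and factors named as raised had a positive ratio in each setting that measured them. *Krt10* turned positive with median centring (0.071) and with the mean of its probes (0.16). The simple minus stratified difference of medians was 1.04 with processed signals and with the authors' table and 1.15 with median centring. The number of genes changed was 2726 with processed signals, 2888 with median centring, 2757 with the authors' table, 992 with the methods' t-test and 298 at 2-fold. The share raised was 87.5% as reported, 71.5% with processed signals, 97.7% with median centring and 77.6% with the authors' table.

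At 2-fold, 298 of the 24052 genes were called. The lists held 2 of 23 anchors, 1 of 15 other filament genes, 1 of 20 transcription factors and 0 of 19 other keratins. Of these 19 keratins, 9 had a positive and 3 a negative ratio at limma's unadjusted p under 0.05, which is 63.2% beside 60.5% of all genes. With an adjusted p under 0.05 at any fold, 13046 of the 24052 genes passed. They held 16 of 23 anchors, 9 of 15 other filament genes, 17 of 20 factors, 15 of 20 surface genes and 12 of 19 other keratins. The methods' t-test called 3 factors. Processed signals called 1 surface gene, and leaving out a replicate gave 0 to 1 by fold alone, the 1 without replicate 1. Leaving out the second array put *Cdx2* at 0.54, below the threshold. The cause of these differences was not tested. No paired analysis was possible because the AIMP3-depleted replicates share 1 control pool, so no replicate number recurs in another group.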
